A study of Mus musculus with 9 samples.

Results

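Transcript levels were followed for 10 genes whose proteins act on AU-rich elements, RNA stem-loops or the poly(A) tail to set how long messenger RNAs last. They were Zfp36, Zfp36l1, Zfp36l2, Elavl1, Khsrp, Zc3h12a, Rc3h1, Btg1, Tob1 and Tob2. These 10 genes were found by symbol among the 16509 genes of the deposited table, and all 10 were among the 11949 genes that passed the filter on low counts. The RNA came from MC38, a line of murine colon carcinoma cells grown in culture. There were 9 libraries, 3 in each of 3 groups. Ctrl cells received vehicle, which is DMSO in the sample labels and PBS in the methods text. Cu-Cys cells received copper chloride together with cystine. Cadict cells received the study's nanodrug, in which copper and cystine are coordinated, glucose oxidase (GOx) is loaded, and a lipid-PEG coat carries the EGFR-binding peptide GE11. The sources used here state no engineered allele, dose or exposure time for these libraries. The methods describe cell experiments in general as independent repeats, while the sample labels do not name separate cultures for these libraries.

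AU-rich elements are stretches of A and U in the 3′ untranslated region (UTR) of short-lived messenger RNAs such as those of cytokines, immediate early factors and growth regulators. Proteins of the ZFP36 family bind them and recruit the CCR4-NOT deadenylase, which shortens the poly(A) tail, after which the transcript is decapped and degraded. KHSRP also promotes decay, whereas ELAVL1 (HuR) binds many of the same transcripts and stabilises them. ZC3H12A (Regnase-1) and RC3H1 (Roquin-1) act on stem-loops, and proteins of the BTG/Tob family tie deadenylases to transcripts or to poly(A)-binding proteins. The libraries were made from RNA selected with oligo(dT), and they give levels of transcripts, not tail lengths, decay rates or proteins.

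Several of these genes carry the AU-rich element themselves. The motif searched was the nonamer TTATTTATT, on the sense strand of the longest 3′ UTR annotated in GENCODE M21 on GRCm38. It occurred at least once in 5 of the 10 genes and in 990 (8.51%) of the 11632 tested genes with an annotated 3′ UTR. The windows below are the first copy in each of the 5 genes, printed 5′ to 3′ as DNA with the nonamer in capitals, because they show that the binding motif of the ZFP36 family lies in the family's own transcripts and in those of Elavl1 and Rc3h1.
Zfp36: tgacgactTTATTTATTgtattaag
Zfp36l1: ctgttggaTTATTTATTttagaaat
Zfp36l2: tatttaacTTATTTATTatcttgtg
Elavl1: catgaaaaTTATTTATTtatttatt
Rc3h1: tttactcaTTATTTATTgagatgag
They lie in the last exon of each gene, at chr7:28376953-28376977 (minus strand, exon 2), chr12:80108169-80108193 (minus strand, exon 2), chr17:84184916-84184940 (minus strand, exon 2), chr8:4285790-4285814 (minus strand, exon 6) and chr1:160970045-160970069 (plus strand, exon 20). The Elavl1 window opens a run of 8 overlapping or neighbouring copies in a 3′ UTR of 4218 bases. The shorter pentamer ATTTA occurred in all 10 genes, from 1 copy in Khsrp (1642 bases of 3′ UTR) to 20 in Rc3h1 (7181 bases), with 17 in Elavl1 and 11 in Btg1 (4166 bases). Its density was above the median of tested genes, 1.33 copies per kb, in 9 of the 10 genes. A motif match is a description of the sequence and not a measured binding site.

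Total counts ran from 17905769 to 18293060 per library. Levels are given as CPM, counts scaled to a common library size by the TMM method of edgeR. Its factors ranged over 1.26 to 1.27 (Ctrl), 1.21 (Cu-Cys) and 0.640 to 0.665 (Cadict). If libraries were scaled by their totals instead, the median over all tested genes moved by -0.95 (log2) in Cadict cells against Ctrl and by -0.07 in Cu-Cys cells, so each Cadict value below is relative to the typical gene. A count of 0 allowed up to 3 counts, which were 0.130 to 0.262 CPM, and this limit covers counting error only. Of the epithelial markers, Epcam had 0 counts in every Ctrl and Cu-Cys library and at most 4 in Cadict libraries, Krt8 had at most 17 and Krt18 at most 2 counts. The epithelial markers that could be tested, Krt19 and Cdh1, were at 1.06 and 4.86 CPM in Ctrl, 0.841 and 3.12 CPM in Cu-Cys and 10.8 and 12.8 CPM in Cadict cells. On the TMM scale both rose in Cadict against Ctrl, with log2 fold changes of 3.34 (Krt19, edgeR adjusted p = 4.5e-11) and 1.39 (Cdh1, edgeR adjusted p = 3.2e-09). The mesenchymal filament gene Vim stood at 2056, 2103 and 2060 CPM. The leukocyte marker Ptprc had at most 4 counts. Col3a1, a fibroblast collagen, was at 368.6, 147.7 and 26.2 CPM and the macrophage marker Cd68 at 3.02, 2.35 and 17.0 CPM in Ctrl, Cu-Cys and Cadict cells, and their part in the results below was not tested. In bulk RNA, fewer cells of a type and less RNA per cell cannot be told apart.

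In Cadict against Ctrl, 9 of the 10 genes passed edgeR's quasi-likelihood test at a Benjamini-Hochberg adjusted p of at most 0.05, beside 87.7% of all tested genes, a share near that of all genes. Zfp36, Zfp36l1, Elavl1, Rc3h1, Btg1 and Tob2 were higher (6 genes, beside 40.6% of tested genes) and Zfp36l2, Khsrp and Zc3h12a were lower (3 genes, beside 47.1%). Under library totals 5 genes were higher and 4 lower, beside 17.8% and 73.7% of the 11632 tested genes with an annotated 3′ UTR. Tob1 joined the lower genes (log2 fold change -0.86, edgeR adjusted p = 4.0e-08), and Zfp36l1 had the opposite sign but did not pass (-0.16, edgeR adjusted p = 0.0507). At the threshold that the study's methods name (2-fold or more, adjusted p up to 0.001), 7 of the 10 were called, beside 47.8% of tested genes, namely 5 higher, beside 20.7%, and 2 lower, beside 27.1%. The libraries of both groups did not overlap for 9 of the 10, beside 87.5%. Their median log2 fold change was 1.08, where that of all tested genes was -0.13. Under library totals these medians were 0.13 and -1.08. On the log2(TPM + 1) scale they were -0.22 and -1.13, with 4 of the 10 genes higher and 5 lower by limma.
In Cu-Cys against Ctrl, 6 of the 10 genes passed the test, beside 45.0% of tested genes. Elavl1, Khsrp, Btg1 and Tob2 were higher (4, beside 22.6%) and Zfp36l2 and Zc3h12a lower (2, beside 22.4%). At the 2-fold threshold 0 of the 10 were called by edgeR and 0 by DESeq2, beside 1.64% of tested genes (0.167% higher and 1.47% lower), although 6 had an unadjusted p under 0.05 by edgeR. Without the limit on the fold change, 2 of the 10 passed an adjusted p of 0.001, beside 17.5%, whereas 9 of the 10 did so in Cadict against Ctrl, beside 76.2%. Ctrl and Cu-Cys libraries did not overlap for 6 of the 10, beside 61.2%.
Between Cadict and Cu-Cys, 10 of the 10 genes passed the test, beside 85.9% of tested genes, with 7 higher (beside 40.3%) and 3 lower (beside 45.6%). At the 2-fold threshold 5 were higher, beside 18.6%, and 1 lower, beside 23.6%, or 6 in all beside 42.2%. Without the fold limit 8 passed an adjusted p of 0.001, beside 72.9%, and 9 did not overlap, beside 85.0%. This comparison is the direct test of whether the changes under both treatments differ, since both share the Ctrl libraries.

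**Figure D1:**
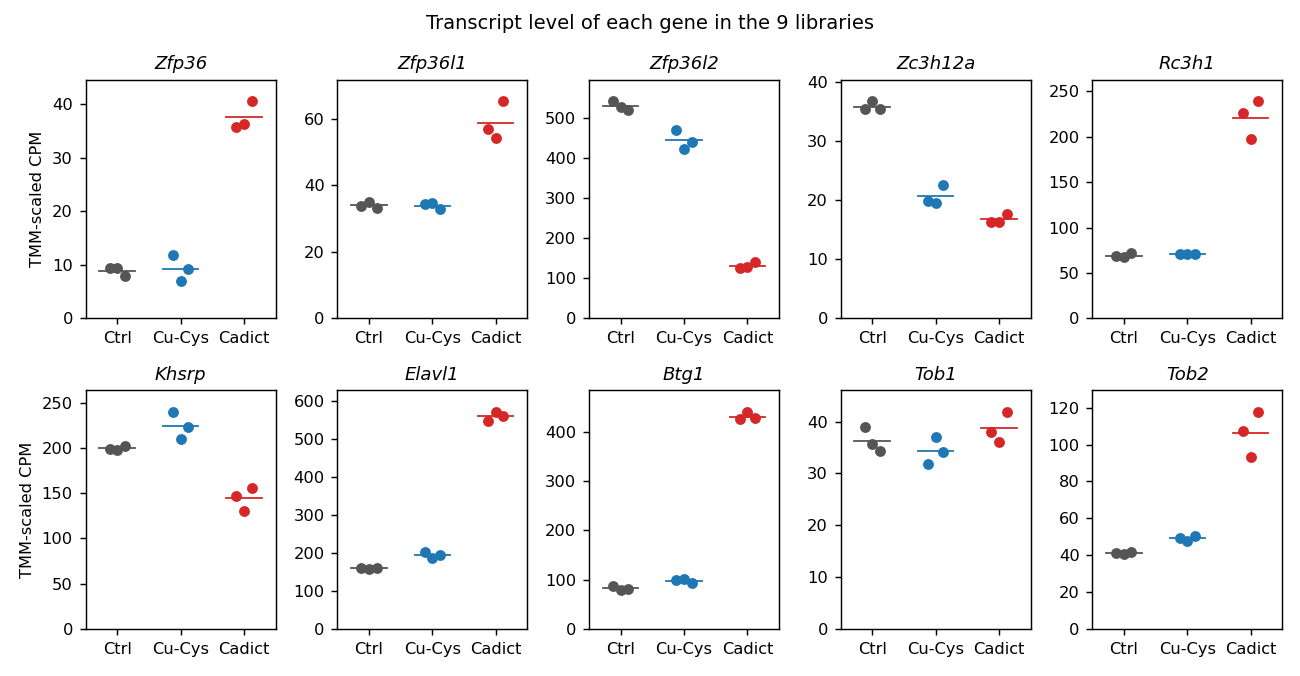
TMM-scaled CPM (vertical axes from 0, one scale per gene) of each of the 10 genes in the 3 Ctrl, 3 Cu-Cys and 3 Cadict libraries. Points are libraries and lines are group means. On this scale Cadict libraries lie above all others for 6 genes and below all others for Zfp36l2, Zc3h12a and Khsrp, and they overlap the other groups for Tob1.

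The ZFP36 family, the destabilising AU-rich element binding proteins, split by member. Zfp36 (tristetraprolin, Entrez 22695, chr7:28376784-28380253, minus strand) was at 9.39, 9.35 and 7.81 CPM in Ctrl, 11.8, 6.86 and 9.17 CPM in Cu-Cys and 35.8, 36.3 and 40.5 CPM in Cadict libraries. All 3 Cadict libraries were above all others, whereas Ctrl and Cu-Cys overlapped. The level rose 4.24-fold in Cadict against Ctrl (log2 fold change 2.08, SE 0.13, edgeR adjusted p = 5.1e-10), and the log2 fold change was 1.13 under library totals. Against Ctrl, Cu-Cys cells had a log2 fold change of 0.07 (SE 0.15, edgeR adjusted p = 0.754).
Zfp36l1 (Entrez 12192, chr12:80107754-80113013, minus strand) was at 33.6, 35.0 and 33.3 CPM in Ctrl, 34.4, 34.5 and 32.8 CPM in Cu-Cys and 56.9, 54.2 and 65.2 CPM in Cadict libraries. Ctrl and Cu-Cys overlapped and the Cadict libraries stood above both. The log2 fold change in Cadict against Ctrl was 0.79 (SE 0.07, edgeR adjusted p = 2.1e-08), but it was -0.16 under library totals, so that Zfp36l1 rose only relative to the typical gene. In Cu-Cys against Ctrl it was -0.0043 (SE 0.07, edgeR adjusted p = 0.968).
Zfp36l2 (Entrez 12193, chr17:84183931-84187947, minus strand) was per length the most abundant of the 10 in Ctrl cells. Its levels were 542.6, 529.4 and 519.9 CPM in Ctrl, 471.0, 423.7 and 441.9 CPM in Cu-Cys and 124.5, 127.1 and 140.6 CPM in Cadict libraries. No group overlapped another, with Ctrl highest and Cadict lowest. Zfp36l2 fell 4.06-fold in Cadict against Ctrl (log2 fold change -2.02, SE 0.06, edgeR adjusted p = 4.7e-14), and the value was -2.97 under library totals. It also fell in Cu-Cys against Ctrl (log2 fold change -0.25, SE 0.06, edgeR adjusted p = 0.0020).

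The make-up of the family within each library does not depend on how libraries are scaled. In TPM, a unit of transcripts per library that corrects for length, Zfp36l2 held 89.8%, 89.3% and 90.0% of the summed Zfp36, Zfp36l1 and Zfp36l2 level in Ctrl libraries. In Cu-Cys libraries it held 87.4%, 88.1% and 88.1%, and in Cadict libraries 45.6%, 46.5% and 45.5%. The groups did not overlap, and the largest step lay between Cu-Cys and Cadict. The share of Zfp36 was 3.34% ± 0.272 in Ctrl, 4.05% ± 0.855 in Cu-Cys and 29.3% ± 0.238 in Cadict cells (SD, n = 3), and that of Zfp36l1 was 6.94% ± 0.210, 8.09% ± 0.512 and 24.9% ± 0.795 (SD, n = 3). An exact two-sided permutation test of 3 against 3 cannot go below p = 0.1, which Cadict against Ctrl reached for all 3 shares. The share of Zfp36 gave an exact p = 0.3 in Cu-Cys against Ctrl. The summed level of the family was 393.4 ± 15.8, 305.4 ± 18.01 and 77.3 ± 12.3 TPM (SD, n = 3) in Ctrl, Cu-Cys and Cadict cells. Unlike the shares, this sum depends on the scaling. In Cadict against Ctrl the log2(TPM + 1) scale moved the median of all tested genes by -1.001 from its value with TMM. By counts, not corrected for length, Zfp36l2 held 92.5% ± 0.232 in Ctrl and 57.6% ± 0.706 in Cadict cells (SD, n = 3). These shares were examined after the levels of the genes had been seen.

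**Figure D2:**
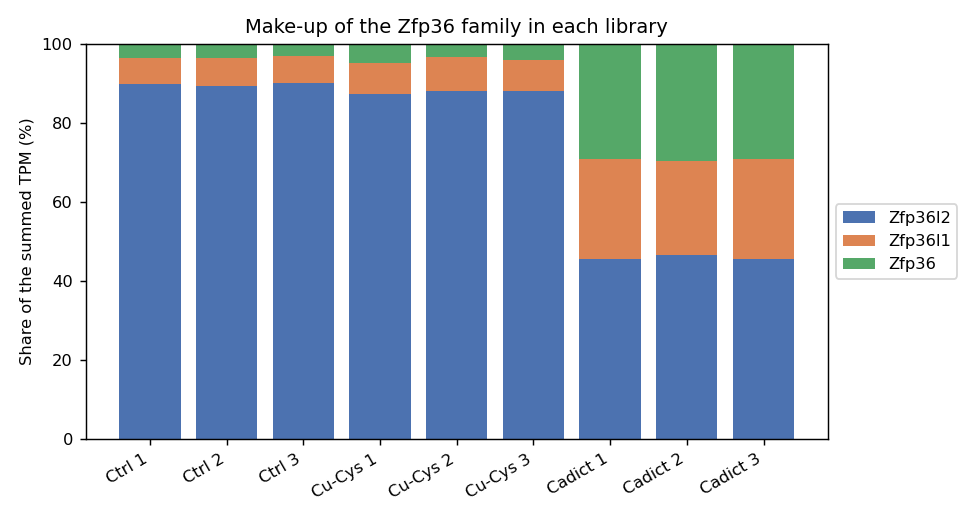
Share (%) of the summed TPM of Zfp36, Zfp36l1 and Zfp36l2 held by each gene, 1 stacked bar per library. Zfp36l2 holds 87.4% to 90.0% in Ctrl and Cu-Cys libraries but 45.5% to 46.5% under Cadict, where Zfp36 and Zfp36l1 hold 29.3% and 24.9% on average.

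KHSRP and ELAVL1 both bind AU-rich elements and have opposite known effects on the transcript. Khsrp (Entrez 16549, chr17:57021051-57031488, minus strand), which promotes decay, was at 199.0, 198.0 and 202.6 CPM in Ctrl, 239.8, 210.1 and 223.1 CPM in Cu-Cys and 146.5, 130.7 and 156.3 CPM in Cadict libraries. No groups overlapped, with Cu-Cys highest and Cadict lowest. Khsrp fell in Cadict against Ctrl (log2 fold change -0.47, SE 0.07, edgeR adjusted p = 5.7e-06; -1.42 under library totals). The rise in Cu-Cys against Ctrl was small (log2 fold change 0.17, SE 0.06, edgeR adjusted p = 0.0431). This call was lost without Cadict library 1 (adjusted p = 0.057), Ctrl library 1 (0.113), Ctrl library 2 (0.117), Ctrl library 3 (0.0854), Cu-Cys library 1 (0.228) or Cu-Cys library 3 (0.0931), and under library totals (0.268, all from edgeR).
Elavl1 (Entrez 15568, chr8:4285382-4325413, minus strand), the stabilising member, was at 159.5, 157.7 and 161.6 CPM in Ctrl, 202.7, 185.8 and 194.8 CPM in Cu-Cys and 549.2, 571.3 and 561.2 CPM in Cadict libraries. The groups did not overlap and rose in that order. Elavl1 rose 3.51-fold in Cadict against Ctrl (log2 fold change 1.81, SE 0.05, edgeR adjusted p = 1.8e-14; 0.86 under library totals) and 1.22-fold in Cu-Cys against Ctrl (log2 fold change 0.28, SE 0.05, edgeR adjusted p = 2.6e-04; 0.22 under library totals). The call in Cu-Cys cells was lost on the log2(TPM + 1) scale (0.14, limma adjusted p = 0.149).
Within each library, the TPM ratio of Khsrp to Elavl1 was 1.95 ± 0.00732 in Ctrl, 1.79 ± 0.0428 in Cu-Cys and 0.402 ± 0.0404 in Cadict cells (SD, n = 3; exact permutation p = 0.1 for each pair of groups, the smallest possible). Khsrp was thus the more abundant of the pair in Ctrl and Cu-Cys cells and Elavl1 in Cadict cells.

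The 2 regulators of stem-loop transcripts moved in opposite directions. Zc3h12a (Entrez 230738, chr4:125118423-125127840, minus strand), an endonuclease that cuts cytokine transcripts, was at 35.3, 36.7 and 35.3 CPM in Ctrl, 19.9, 19.5 and 22.5 CPM in Cu-Cys and 16.3, 16.2 and 17.6 CPM in Cadict libraries. Both treatments lay below all Ctrl libraries, and Cadict lay below Cu-Cys. Of the 10 genes it had the largest change in Cu-Cys against Ctrl, a 1.73-fold fall (log2 fold change -0.79, SE 0.07, edgeR adjusted p = 5.0e-07; -0.86 under library totals). In Cadict against Ctrl it fell 2.14-fold (log2 fold change -1.10, SE 0.08, edgeR adjusted p = 1.1e-09; -2.05 under library totals). Between Cadict and Cu-Cys the log2 fold change was -0.30 (SE 0.08, edgeR adjusted p = 0.0024), and DESeq2's Wald test gave an adjusted p of 0.0849.
Rc3h1 (Entrez 381305, chr1:160906418-160974978, plus strand), which binds stem-loops and recruits the deadenylase, was at 68.8, 67.1 and 71.4 CPM in Ctrl, 71.1, 71.3 and 70.6 CPM in Cu-Cys and 225.9, 197.4 and 239.1 CPM in Cadict libraries. Ctrl and Cu-Cys overlapped, and the Cadict libraries were at least 197.4 CPM. Rc3h1 rose 3.20-fold in Cadict against Ctrl (log2 fold change 1.68, SE 0.06, edgeR adjusted p = 9.5e-13; 0.73 under library totals). Against Ctrl, Cu-Cys cells had a log2 fold change of 0.04 (SE 0.06, edgeR adjusted p = 0.657). The TPM ratio of Zc3h12a to Rc3h1 fell from 2.24 ± 0.111 in Ctrl to 1.25 ± 0.101 in Cu-Cys and 0.327 ± 0.0231 in Cadict cells (SD, n = 3; exact permutation p = 0.1 for each pair of groups).

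The BTG/Tob genes encode antiproliferative adaptors of the deadenylases. Btg1 (Entrez 12226, chr10:96617006-96622809, plus strand) had the largest rise of the 10 in Cadict against Ctrl. It was at 86.4, 79.0 and 82.0 CPM in Ctrl, 99.6, 101.1 and 92.6 CPM in Cu-Cys and 425.5, 440.2 and 427.4 CPM in Cadict libraries. No groups overlapped. The rise was 5.23-fold in Cadict against Ctrl (log2 fold change 2.39, SE 0.05, edgeR adjusted p = 2.5e-15; 1.43 under library totals) and 1.19-fold in Cu-Cys against Ctrl (log2 fold change 0.25, SE 0.05, edgeR adjusted p = 0.0017; 0.18 under library totals). The call in Cu-Cys cells was lost on the log2(TPM + 1) scale (0.10, limma adjusted p = 0.324).
Tob1 (Entrez 22057, chr11:94211454-94215495, plus strand) was at 38.9, 35.8 and 34.3 CPM in Ctrl, 31.8, 37.0 and 34.1 CPM in Cu-Cys and 38.1, 36.1 and 41.8 CPM in Cadict libraries. All 3 groups overlapped. Against Ctrl, the log2 fold change was 0.09 in Cadict cells (SE 0.08, edgeR adjusted p = 0.279) and -0.08 in Cu-Cys cells (SE 0.07, edgeR adjusted p = 0.378). The call in Cadict cells turned on the scaling, with a log2 fold change of 0.21 under DESeq2's size factors (edgeR adjusted p = 0.0192) and -0.86 under library totals (edgeR adjusted p = 4.0e-08). Between Cadict and Cu-Cys it was 0.17 (edgeR adjusted p = 0.0487), which became -0.71 under library totals. The call was lost without Cadict library 1 (adjusted p = 0.0777), Cadict library 3 (0.226), Ctrl library 1 (0.0584), Ctrl library 2 (0.0744), Ctrl library 3 (0.0641), Cu-Cys library 1 (0.183) or Cu-Cys library 3 (0.117, all from edgeR).
Tob2 (Entrez 57259, chr15:81848272-81858485, minus strand) was at 41.1, 40.6 and 41.6 CPM in Ctrl, 49.3, 47.7 and 50.3 CPM in Cu-Cys and 107.2, 93.4 and 117.6 CPM in Cadict libraries. The groups did not overlap. Tob2 rose 2.58-fold in Cadict against Ctrl (log2 fold change 1.37, SE 0.07, edgeR adjusted p = 4.0e-11; 0.42 under library totals), a call that was lost on the log2(TPM + 1) scale (0.057, limma adjusted p = 0.646). It rose 1.19-fold in Cu-Cys against Ctrl (log2 fold change 0.26, SE 0.07, edgeR adjusted p = 0.0094), and that call was lost under library totals (0.19, edgeR adjusted p = 0.0659), on FPKM (limma adjusted p = 0.101) and on TPM (limma adjusted p = 0.497). The TPM ratio of Tob1 to Tob2 was 1.68 ± 0.119 in Ctrl, 1.33 ± 0.129 in Cu-Cys and 0.693 ± 0.0335 in Cadict cells (SD, n = 3; exact permutation p = 0.1 for each pair of groups), so that Tob1 was the more abundant in Ctrl and Tob2 in Cadict cells.

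**Figure D3:**
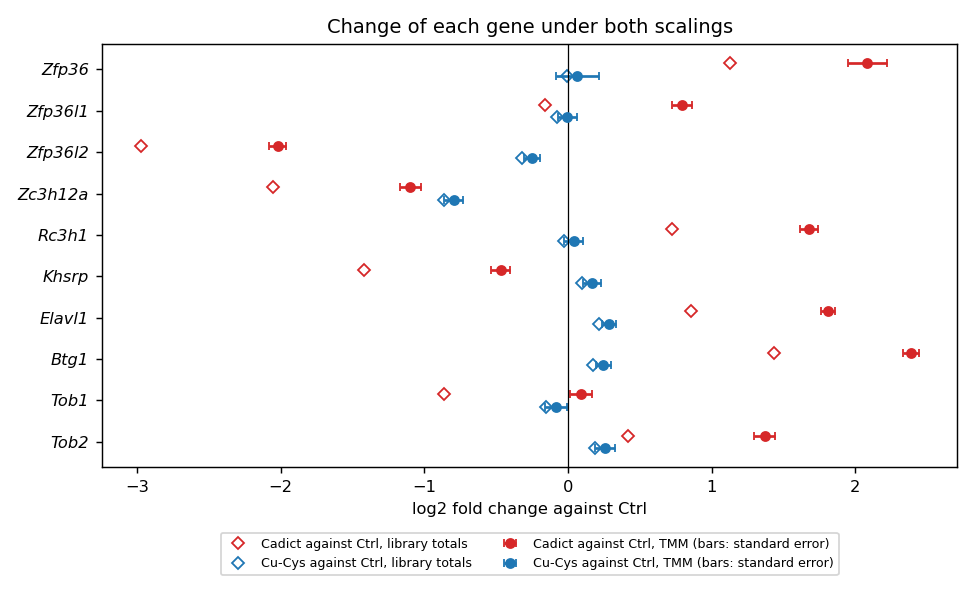
log2 fold change against Ctrl (horizontal axis) of each gene in Cadict (red) and Cu-Cys (blue) cells. Filled circles with bars are TMM-scaled values with their standard error and open diamonds are values under library totals. Under library totals every Cadict value lies about 0.95 lower, which places Zfp36l1 and Tob1 below 0 and leaves the other 8 genes on the same side.

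Read per length, the order of the 10 genes also differed between groups. In Ctrl cells Zfp36l2 led at 352.9 ± 13.97 TPM, followed by Khsrp at 116.1 ± 1.85 and Elavl1 at 59.6 ± 1.16 TPM (SD, n = 3). Tob1 (40.2 ± 3.38 TPM) and Btg1 (37.6 ± 2.31 TPM) overlapped, Zc3h12a, Zfp36l1 and Tob2 followed at 30.8, 27.3 and 23.9 TPM, and Rc3h1 (13.8 TPM) and Zfp36 (13.2 TPM) overlapped at the bottom. In Cu-Cys cells the first 3 places and the last 2 were held by the same genes, while Zc3h12a came eighth at 16.1 ± 1.49 TPM. In Cadict cells Elavl1 (85.0 ± 7.34 TPM) and Btg1 (79.8 ± 6.44 TPM) led and overlapped (SD, n = 3). Zfp36l2 (35.4 ± 5.26 TPM) came next, and from it down to Tob1 (17.4 ± 2.95 TPM) each gene overlapped the next. Compared within each Cadict library, Zfp36l2 and Khsrp stood above Tob2, then came Zfp36, then Zfp36l1, then Rc3h1 and Tob1. The order of Zfp36l2 against Khsrp, and of Rc3h1 against Tob1, differed between libraries and is not resolved. Zc3h12a was lowest at 5.86 ± 0.800 TPM and overlapped none.

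The surrounding machinery was described with lists of genes written from general knowledge. For each list the counts are of genes passing the same edgeR test in Cadict against Ctrl, beside 40.6% higher and 47.1% lower over all tested genes. With library totals, 17.8% were higher and 73.7% lower over the 11632 tested genes with an annotated 3′ UTR. No such share is given on the log2(TPM + 1) scale, where the median of all tested genes was -1.13. Of 20 tested paralogs and other RNA-binding proteins of this kind, 13 were higher and 4 lower, with a median log2 fold change of 0.83. Under library totals 8 were higher and 9 lower, with a median of -0.12 where that of all genes was -1.08, and on the log2(TPM + 1) scale 5 were higher and 11 lower by limma. Btg3, a further BTG/Tob gene, rose from 38.5 ± 1.21 CPM in Ctrl to 277.4 ± 7.71 CPM in Cadict cells, and Cpeb2, which binds the cytoplasmic polyadenylation element, from 8.14 ± 0.570 to 54.99 ± 7.24 CPM (SD, n = 3). N4bp1, an endonuclease related to Regnase-1, fell from 83.1 ± 1.31 to 24.2 ± 2.99 CPM and Zc3h12c from 14.8 ± 0.747 to 10.7 ± 0.828 CPM (SD, n = 3). Btg4 had 0 counts in every Ctrl library and was at least 9.84-fold higher in Cadict cells at 1.28 CPM, against the limit of 3 counts per library. At 0 CPM in Cu-Cys cells too, Btg4 passed the filter through Cadict libraries alone, so the filter fixed the direction of its change. It is among the 13 higher genes of the list. With at least 10 counts in every library 12 were higher and 3 lower by edgeR. Btg4 was named after its value was seen.

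Of the 12 CCR4-NOT genes, which form the main deadenylase, 3 were higher and 6 lower, with a median log2 fold change of -0.31 (-1.27 under library totals, with 0 higher and 11 lower by edgeR). Cnot6, a catalytic subunit, fell from 194.0 ± 4.38 CPM in Ctrl to 56.8 ± 5.91 CPM in Cadict cells, and Tnks1bp1, a protein associated with the complex, from 178.2 ± 7.94 to 58.8 ± 3.04 CPM (SD, n = 3). Cnot10 rose relative to the typical gene (log2 fold change 1.04, SE 0.05) and so did Cnot4 (0.56, SE 0.07), but Cnot4 was at -0.39 under library totals and Cnot10 at -0.25 on the log2(TPM + 1) scale.
Of 9 tested genes for PAN2-PAN3, PARN and poly(A)-binding proteins, 5 were higher and 3 lower, with a median log2 fold change of 0.68. Under library totals 1 was higher and 6 lower (median -0.27), beside 17.8% and 73.7% of tested genes with an annotated 3′ UTR. On the log2(TPM + 1) scale 0 were higher and 8 lower by limma. Within the PAN2-PAN3 deadenylase Pan3 was at 32.5 ± 2.62 CPM in Ctrl and 71.96 ± 1.43 CPM in Cadict cells (SD, n = 3). On the log2 scale this was 1.15 with TMM but -0.11 on log2(TPM + 1) values. The catalytic subunit Pan2 fell from 26.5 ± 1.97 to 10.04 ± 1.70 CPM (SD, n = 3; log2 fold change -1.40). The inhibitor of poly(A)-binding protein Paip2 rose (log2 fold change 1.07, SE 0.05; -0.25 on the log2(TPM + 1) scale) and the activator Paip1 fell (-0.64, SE 0.08).
Of 20 decapping and 5′ decay genes, 9 were higher and 8 lower, with a median log2 fold change of 0.05. Under library totals 4 were higher and 15 lower (median -0.91), and on the log2(TPM + 1) scale 1 was higher and 16 lower by limma. Lsm4 and Lsm5, of the ring that activates decapping, rose from 57.4 ± 1.66 to 163.5 ± 33.1 CPM and from 25.2 ± 0.527 to 66.0 ± 11.9 CPM, although Lsm5 was at -0.015 on the log2(TPM + 1) scale. The exonuclease gene Xrn1 fell from 54.7 ± 0.610 to 31.7 ± 3.50 CPM and the decapping enzyme gene Dcp2 from 56.6 ± 0.607 to 33.7 ± 1.89 CPM (SD, n = 3).
Of 14 tested kinases and partners that act on the 10 proteins, 8 were higher and 4 lower, with a median log2 fold change of 0.65. Under library totals 4 were higher and 9 lower (median -0.31), and on the log2(TPM + 1) scale 3 were higher and 10 lower by limma. In the p38 pathway, whose kinase MK2 phosphorylates tristetraprolin, Map2k3 rose from 136.6 ± 3.98 to 469.6 ± 7.48 CPM (SD, n = 3). Mapkapk3, which encodes MK3, rose from 22.9 ± 0.816 to 80.1 ± 7.13 CPM, whereas Mapk14, which encodes p38α, fell from 91.0 ± 2.22 to 30.01 ± 2.06 CPM (SD, n = 3). Mapkapk2, which encodes MK2, had a log2 fold change of 0.74 with TMM. Of the other genes of this pathway in the list, Map2k6 (-1.73) and Mapk11 (-0.67) fell and Mapk12 did not pass the test. Malt1, whose protease cleaves Regnase-1, fell from 19.6 ± 1.96 to 5.65 ± 1.19 CPM (SD, n = 3).

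Transcripts known as targets of these regulators were the list with the highest median. Of 31 tested, 22 were higher and 8 lower in Cadict against Ctrl, beside 40.6% and 47.1% of tested genes. Their median log2 fold change was 1.32. Under library totals 16 were higher and 13 lower, beside 17.8% and 73.7% of tested genes with an annotated 3′ UTR, and the median was 0.37. On the log2(TPM + 1) scale 11 were higher and 15 lower by limma, with a median of 0.014. With at least 10 counts in every library 19 were higher and 8 lower by edgeR. The 22 include Cxcl2 and Il6, which averaged at most 0.0433 CPM in Ctrl and in Cu-Cys cells and passed the filter through Cadict libraries alone. At the 2-fold threshold 23 of the 31 were called by edgeR, beside 47.8%. Fosb, an immediate early factor, rose from 2.18 ± 0.338 to 65.8 ± 3.85 CPM, and Ptgs2, which encodes cyclooxygenase-2, from 47.3 ± 2.98 to 1363 ± 192 CPM (SD, n = 3). Ccnd1, encoding cyclin D1, fell from 1057 ± 4.94 to 111.9 ± 8.09 CPM and the chemokine gene Ccl2 from 384.5 ± 15.2 to 67.8 ± 7.86 CPM (SD, n = 3). These targets therefore changed in both directions.
In Cu-Cys against Ctrl this list had 8 genes higher and 15 lower, beside 22.6% and 22.4% of tested genes. Its median log2 fold change was -0.25, where that of all tested genes was 0.01. At the 2-fold threshold 7 of the 31 were called, beside 1.64% of tested genes, namely 1 higher, beside 0.167%, and 6 lower, beside 1.47%. Ptgs2 was higher in both treatments (98.0, 113.1 and 101.8 CPM in Cu-Cys libraries), and Ccl2 was lower in both (162.1 ± 7.87 CPM in Cu-Cys, SD, n = 3). Among the other lists, 0 genes were called at that threshold by edgeR in Cu-Cys against Ctrl. At an adjusted p of 0.05, 14 of the 20 paralogs, 5 of the 12 CCR4-NOT genes and 4 of the 9 poly(A) genes passed. So did 5 of the 20 decapping genes and 6 of the 14 kinases and partners. In that order the shares were 70.0%, 41.7%, 44.4%, 25.0% and 42.9%, beside 45.0% of all tested genes.

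**Figure D4:**
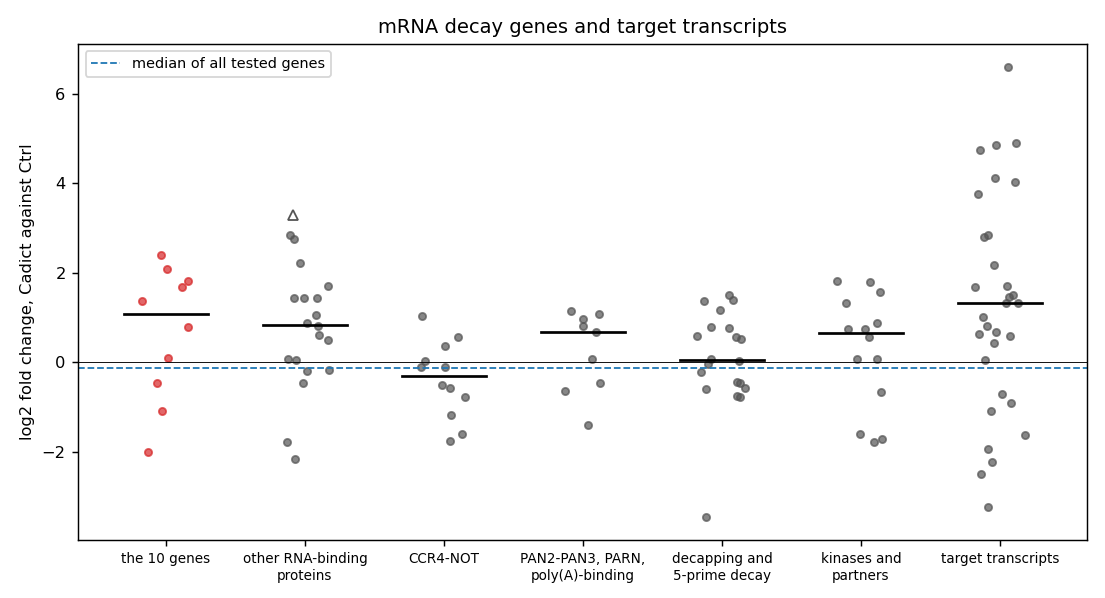
log2 fold change in Cadict against Ctrl (TMM scaling, vertical axis) of the 10 genes (red) and of the tested genes of the other 6 lists (grey), with each list's median as a black line and the median of all tested genes, -0.13, dashed. The open triangle is Btg4, drawn at its lower bound of 3.30 because no Ctrl library had a count. Btg4 passed the filter on low counts through Cadict libraries alone. Target transcripts spread widest, from -3.24 upward, and the CCR4-NOT median of -0.31 lies lowest.

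The nonamer was also counted across all tested genes, as a description with no test. In Cadict against Ctrl the median log2 fold change was -0.13 for the 10642 genes with no copy, -0.16 for 764 genes with 1 copy, -0.31 for 143 genes with 2 copies and 0.26 for 83 genes with 3 or more. Of these 83 genes, 50.6% passed the test as higher and 38.6% as lower, beside 40.5% and 47.4% of all genes with an annotated 3′ UTR. Under library totals their median was -0.70, where that of all was -1.09. The 83 genes have longer 3′ UTRs than all tested genes, with medians of 2680 and 1201 bases. When all 3′ UTRs were split by length into 3 equal classes, 58 such genes in the longest class had a median of -0.06 beside -0.19 for that class. The middle and shortest classes held only 18 and 7 of them, with medians of 0.52 and 2.12 beside -0.24 and 0.04. Both of these groups are thinly filled. In Cu-Cys against Ctrl the 83 genes had a median of 0.10, beside 0.01 for all. Classes by the pentamer ATTTA lay closer together in Cadict against Ctrl. Their medians were -0.17 for 7066 genes with 0 to 2 copies, -0.13 for 2436 genes with 3 to 5 and -0.07 for 2130 genes with 6 or more.

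Promoters of 300 bases, from 250 before to 50 after the RefSeq start on GRCm38.p6, were held by the reference for 9 of the 10 genes, all but Zfp36l2. Searched on both strands, the heat shock element GAANNTTC (7.86% of all 32851 promoters), the ATF4 site TGATGCAA (0.895%) and the cyclic AMP response element TGACGTCA (1.79%) had no match in the 9. The AP-1 site TGANTCA (7.81%) matched in Rc3h1 and Zfp36l1, and the serum response element (1.63%) in Zfp36. The metal response element matched as TGCGCNC (15.4%) in Elavl1, Tob1 and Zfp36l1 and as TGCACNC (12.6%) in none. One window is shown for each gene and motif that matched, whatever the gene's change, so that the matched letters can be read. The motif is in capitals and each window is written 5′ to 3′ on the gene's strand.
Rc3h1, AP-1: ggggccggTGACTCAgagctttc
Zfp36l1, AP-1: cgcatggcTGATTCAacctcagt
Zfp36, serum response: aggccgccCCATAAAAGGagaaagct
Elavl1, metal response: cctacgccGCGCGCAcccgcgta
Tob1, metal response: cgcgagcgGCGCGCAcccccgcg
Zfp36l1, metal response: ttgggcttTGCGCGCcgcagccc
The first 3 lie 133, 129 and 58 bases before the RefSeq starts, at chr1:160906270-160906292 (plus strand), chr12:80113128-80113150 (minus strand) and chr7:28379269-28379294 (minus strand), and the third lies inside the wider extent that GENCODE gives Zfp36. The metal response windows lie 98, 85 and 15 bases before the starts, at chr8:4325184-4325206 (minus strand), chr11:94211361-94211383 (plus strand) and chr12:80113014-80113036 (minus strand). In Elavl1 and Tob1 the motif is on the opposite strand in these windows, and each has a further match after its start. The Elavl1 window also lies inside the extent that GENCODE gives Elavl1. No match elsewhere says only that these letters are not in the window.

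The genes whose changes in both treatments were nearest to those of Btg1 and Zfp36l2 were found among the 8550 genes that averaged 10 CPM or more, by the distance between pairs of log2 fold changes against the shared Ctrl libraries. Nearest to Btg1 (2.39 in Cadict and 0.25 in Cu-Cys) were Dpp7 (2.38 and 0.27), Zfp622 (2.41 and 0.27) and Stip1 (2.34 and 0.24). Nearest to Zfp36l2 (-2.02 and -0.25) were Fam189b (-2.04 and -0.24), Cep250 (-2.02 and -0.27) and Chst2 (-2.02 and -0.28).

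The counts of these genes could be shared with other genes to a small degree. Of the 50-base stretches in their GENCODE transcripts, 3.13% in Zfp36l1 also occur in the pseudogene Zfp36l1-ps, 2.49% in Btg1 occur in Gm14519, 1.76% in Zfp36 occur in any of 45 genes and 1.57% in Khsrp occur in 2 genes, while Zfp36l2, Elavl1, Rc3h1 and Tob1 share none. Zfp36, Zfp36l1, Zfp36l2, Elavl1, Khsrp and Tob2 overlap a gene on the opposite strand, and whether counting used the strand is not given in the sources used here.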

How the data were processed

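RNA-seq values of 9 MC38 libraries (3 Ctrl, 3 Cu-Cys, 3 Cadict) were read from a single table. For each gene and library the authors deposited an expected count (not normalised), FPKM and TPM values (scaled for length and depth), and a signal value, which is the count divided by a size factor per library. The submitters' processing notes name HISAT2 2.1.0, Bowtie2 2.3.4.3 and RSEM 1.3.1 with the builds GRCh38.p13 and GRCm39, in no stated role. The table holds no coordinates, so positions and sequences come from GENCODE M21 on GRCm38 and from RefSeq promoters on GRCm38.p6. Columns CC were read as Cu-Cys by its initials and CCGE as Cadict, which is inferred from its components, and 12 columns that average a group were not used. The methods text names TRIzol and an Illumina instrument, whereas the labels name a column kit and nanoball sequencing.

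The rounded counts went into edgeR 4.0.16 under R 4.3.3 (filterByExpr, TMM, one quasi-likelihood fit of the 3 groups, Benjamini-Hochberg adjustment over 11949 genes), a procedure tested on simulated data. The simulated data had few changed genes, with rises and falls balanced, so they did not test the scaling of Cadict libraries, where most genes changed. SE is the log2 fold change divided by the square root of F. The study's methods name the DESeq package. Alternatives were DESeq2 1.42.0 (its size factors and its Wald test), library totals, other filters, the replicate number as a block, limma 3.58.1 on the log2 of FPKM with a pseudocount of 1 and of TPM with 1 or 0.1, and each library left out in turn. Shares and ratios within a library, and the thresholds under each scaling, were added after seeing the data.

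The 10 genes, the lists and the alternatives were chosen with earlier results of these data known. Besides the 10, the text names the 2 largest rises and 2 largest falls of each list in Cadict against Ctrl among genes that passed the test and averaged 10 CPM or more, and the 3 nearest neighbours of the largest rise and fall. Btg4, Cxcl2, Il6, Mapkapk2, Map2k6, Mapk11 and Mapk12 were named outside this rule. Zfp36l3 and others of the lists that are absent from the table, and Cdx2, Cd3e and Adgre1 among the markers, were not analysed here.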

Additional observations from a re-analysis of the deposited data

How the results depend on the processing

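Over 30 results (10 genes in 3 comparisons), direction and call were the same in 29 under DESeq2's size factors, 28 under its Wald test, 28 with at least 10 counts in every library, 29 without a filter, 24 under library totals, 24 on FPKM and 20 on TPM with either pseudocount (5 reversed, 5 no longer past the threshold). Reversed log2 fold changes in Cadict against Ctrl were those of Zfp36l1 (-0.16 under library totals, -0.16 on FPKM, -0.52 and -0.50 on TPM with pseudocounts of 0.1 and 1), Tob1 (-0.86, -0.83, -1.21 and -1.17) and Cnot4 (-0.39, -0.45, -0.83 and -0.78), and on TPM with 0.1 and 1 those of Cnot10 (-0.26 and -0.25), Pan3 (-0.11 and -0.105), Paip2 (-0.25 and -0.25) and Lsm5 (-0.016 and -0.015). In Cadict against Cu-Cys they were those of Zfp36l1 (-0.088, -0.092, -0.37 and -0.35), Tob1 (-0.71, -0.68, -0.99 and -0.95) and, on TPM, Tob2 (-0.055 and -0.052). On TPM with either pseudocount, 5 of the 10 genes were lower in Cadict against Ctrl; 2 passed the test in Cu-Cys against Ctrl, with 0 higher; and in Cadict against Cu-Cys 4 were higher, 5 lower and 3 called at 2-fold. With TMM, 2 of the 10 genes passed an adjusted p of 0.001 by edgeR in Cu-Cys against Ctrl without a fold limit. Library totals and FPKM each gave 2 higher in that comparison at an adjusted p of 0.05. These scalings shift the median of all genes, by -0.95 under library totals, -0.65 on FPKM and -1.001 on TPM in Cadict against Ctrl. Leaving out each library in turn kept the call in 257 of 270 cases, and the 13 lost were Khsrp in Cu-Cys against Ctrl and Tob1 in Cadict against Cu-Cys. The log2 fold change in Cadict against Ctrl then ran from 2.35 to 2.42 for Btg1, 1.99 to 2.12 for Zfp36 and -2.08 to -1.99 for Zfp36l2. With the replicate number as a block, 29 of 30 results were the same, and Tob1 in Cadict against Cu-Cys was lost (edgeR adjusted p = 0.0659). The replicate numbers are not said to pair libraries, so the main fit had no block. Deviations of same-numbered libraries correlated at -0.192 to 0.152 over 8551 genes. With 3 libraries per group, these correlations cannot show whether libraries were paired. Outside Cadict cells Zfp36 had the lowest CPM of the 10, at 6.86 to 11.8, and depth and other sources of its spread were not separated.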
